A study of Mus musculus with 7 samples.

Results

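Of the 21883 protein-coding genes with a position on chromosomes 1 to 19, X and Y, 96 are genes of oxidative phosphorylation by their symbols: those that start with Nduf, Uqcr, Cox4 to Cox8 or Atp5, and Sdha to Sdhd. They were grouped as 41 subunit genes of complex I (NADH dehydrogenase), 8 of its assembly factors (Ndufaf genes) and 4 of complex II (succinate dehydrogenase). The other groups are 8 genes of complex III (the cytochrome bc1 complex), 18 of complex IV (cytochrome c oxidase) and 17 of ATP synthase. The groups rest on symbols alone, so every Nduf gene outside the Ndufaf genes counts under complex I, Ndufa4 and Ndufa4l2 included. The question was where peaks of the transcription factors LEF1 and TCF1 lie at these genes. CUT&RUN had been done with an antibody to LEF1 (3 libraries) or to TCF1 (3 libraries): the antibody brings a micrococcal nuclease to its target, and the DNA fragments released there are sequenced. All 6 libraries came from spleen of wild-type mice (WT) whose CD8 T cells carry the transgenic T cell receptor P14, and from cells sorted as CD8+, Ly5.1+, CD44- and CD62L+, the surface pattern of naive cells. The cells had been fixed, and the labels give neither the animals' age nor whether replicates came from separate animals. An input control, sorted through a different gate (CD8+, Ly5.1-, CD44+), was not analysed here.

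Oxidative phosphorylation is the route by which mitochondria make ATP: complexes I to IV pass electrons from NADH and succinate to oxygen, all but complex II pump protons, and ATP synthase uses the proton gradient. Most subunits are encoded in the nucleus, and their promoters are known for sites of NRF1, of the ETS factor GABP, of YY1 and of ERR-alpha. Naive T cells are quiescent and are known to rely largely on this route, while activated T cells turn to glycolysis. LEF1 and TCF1 (gene Tcf7) are HMG-box factors that bind DNA at a CTTTGA core and are known for maintaining naive and memory T cells.

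The 6 peak lists were of unequal length, from 37646 distinct intervals (LEF1 replicate 2) to 11423 (TCF1 replicate 3), and the longest list touched the most genes and the shortest the fewest. Peaks lay within 1 kb of either end of 60, 74 and 50 of the 96 genes in LEF1 replicates 1 to 3, and of 68, 59 and 27 in TCF1 replicates 1 to 3. As shares these were 62.5%, 77.1% and 52.1% for LEF1 and 70.8%, 61.5% and 28.1% for TCF1. Over all protein-coding genes the shares were 32.2%, 38.9% and 29.5% for LEF1 and 35.8%, 32.8% and 19% for TCF1. In every library the share of oxidative phosphorylation genes was above that of all genes, and TCF1 replicate 3 was the lowest on both counts. The mean share of the members was 63.9% ± 12.6 (SD, n = 3) for LEF1 and 53.5% ± 22.4 (SD, n = 3) for TCF1. Over all genes the means were 33.5% ± 4.84 and 29.2% ± 9 (SD, n = 3 each), a difference of 4.34 percentage points that did not exceed the spread between libraries (two-sided exact permutation test, p = 0.7, smallest possible 0.1). Without TCF1 replicate 3 that difference was -0.778 percentage points. Since the source of the replicates is not stated, this p measures no more than how these libraries vary, and that variation may be technical.

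Peaks that overlapped across libraries were merged into regions, and a factor is said to hold a region when at least 2 of its 3 libraries had a peak in it. LEF1 held a region within 1 kb of an end of 62 members (64.6%, against 33.2% of all protein-coding genes). TCF1 held one at 59 (61.5%, against 32.3%). Both factors held an end of 55 members, at least 1 of them held an end of 66, and neither held an end of 30. With the body and the flanking 10 kb included, the counts were 76 for LEF1 (79.2%, against 52.6% of all genes) and 74 for TCF1 (77.1%, against 49.8%). A peak in all 6 libraries stood at an end of 26 members (27.1%, against 18.6% of all genes), while 12 had no peak of any library in the body or within 10 kb (12.5%, against 40.6%). The members are short, with a median length of 7.23 kb against 17.2 kb for all genes, so their windows over the body held fewer bases. The TCF1 counts rested on replicates 1 and 2: without either of them, so that both remaining lists were required, 27 members had a TCF1 end region (against 19.5% of all genes) and 43 a region in the body or 10 kb (against 34.2%). With each list shortened to the 11423 peaks with the highest −log10 q, LEF1 held an end of 24 members (against 15.9% of all genes) and TCF1 of 30 (against 19.1%).

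**Figure D1:**
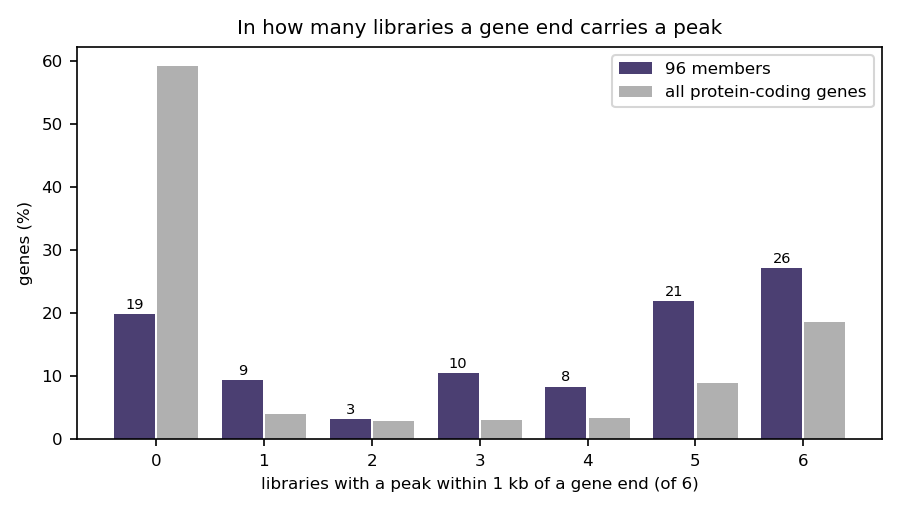
The horizontal axis gives the number of the 6 libraries with a peak within 1 kb of either gene end, and the vertical axis the percent of genes, for the 96 members (dark bars, counts printed above) and all protein-coding genes (grey bars). No library had a gene-end peak at 19 members (19.8%) and at 59.2% of all genes, while 21 members (21.9%) had one in 5 libraries and 26 in all 6.

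Between the fully covered and the empty genes, the missing list was mostly the same one. Of the 21 members with a gene-end peak in exactly 5 libraries, 20 lacked it in TCF1 replicate 3 and 1 lacked it in LEF1 replicate 3. Over all genes, TCF1 replicate 3 was the missing library at 97.2% of the 1938 genes with exactly 5.

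As at other genes, the peaks lay mostly at the start and just upstream of it. A transcription start is listed for 78 of the 96 members in a RefSeq promoter table of build GRCm38.p6. LEF1 and TCF1 each held a region within 1 kb of that start at 54 of the 78 (69.2%, against 34.4% of all genes with a listed start for LEF1 and 34.1% for TCF1). Each held one within 1 kb of the other end of the gene at 4 (5.13%), near the share of all genes (4.93% for LEF1 and 3.92% for TCF1). The median distance of the summit of the strongest gene-end peak from the start ran from -131 to -87 bp over the 6 libraries, negative values being upstream, and from -104 to -77 bp over all genes, close to the same position. Summits within 250 bp of the start made up 80.8% to 92.5% of the members' peaks, against 63.6% to 71.7% over all genes. A few members differ: the strongest end peak of Ndufv2 lay 471 to 538 bp upstream in all 6 libraries, that of Ndufa11 612 to 622 bp upstream, and that of Ndufb6 far downstream, at the end next to Smim27 and Topors (9530 to 9630 bp from the start).

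**Figure D2:**
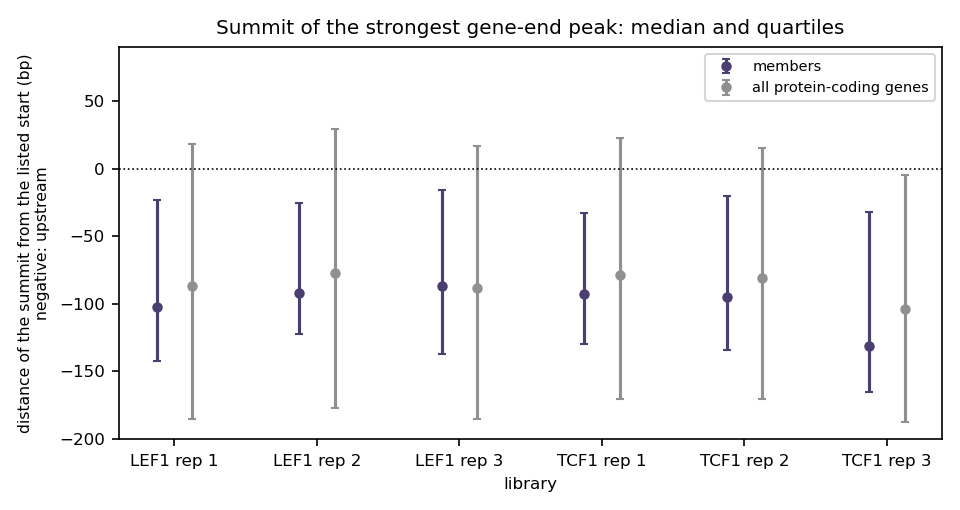
The vertical axis gives the distance in bp from the listed transcription start to the summit of each gene's strongest gene-end peak (negative, upstream), by library on the horizontal axis. Points are medians and bars run from the lower to the upper quartile, for members (dark) and all protein-coding genes (grey), and the members' quartiles span a narrower range in each of the 6 libraries.

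These genes share their ends with other genes more often than all genes do, and a peak at a shared end cannot be told apart between the neighbours. Another protein-coding gene ended within 1 kb of an end of 54 of the 96 members (56.2%), against 24.8% of all genes. Pairs of this kind are Ndufs6 with Mrpl36 and Ndufb5 with Mrpl47, both partners being genes of the mitochondrial ribosome, Atp5j with Gabpa (the DNA-binding subunit of GABP), Uqcrh with Lrrc41, Uqcrq with Gdf9 and Ndufb11 with Rbm10. Where an end was shared, LEF1 held an end of 66.7% of members and 53.8% of all genes. Where none was shared, LEF1 held 26 of 42 members (61.9%) and 26.4% of all genes, and TCF1 also held 26 of 42 (61.9%) and 25.3% of all genes. With each shared end left out, 34 of the 96 members had an end held by LEF1 (against 24.1% of all genes) and 32 one held by TCF1 (against 23.0%). Their promoters, taken as 250 bp before to 50 bp after the start, hold a median of 20 CpG, against 13 over all genes. Among promoters with at least 15 CpG, LEF1 held an end of 44 of 60 members (73.3%) and of 52.7% of all genes. Among those under 15, it held 10 of 18 members (55.6%) and 17.7% of all genes. The part of CpG content in the counts was not tested beyond these values. The split at 15 CpG and the counts by shared ends were added after the data were seen.

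Of these promoters, 7 are printed because the results below turn on them. Each line gives the 150 bases before the listed start, 5′ to 3′ on the gene's strand, from RefSeq (GRCm38.p6), with the searched motif cores in capitals. Ndufs6 (chr13:73328483-73328632, minus strand) is 1 of only 2 members whose promoter holds the TCF/LEF core. Ndufv2 (chr17:66101560-66101709, minus strand) and Atp5g2 (chr15:102671048-102671197, minus strand) are ends with peaks in all 6 libraries, the first with an SP core and the second with an NRF1 core and part of an SP core. Uqcrh (chr4:116075071-116075220, minus strand) ranked far higher in TCF1 than in LEF1 libraries, and Uqcrc1 (chr9:108936498-108936647, plus strand) the other way round. Ndufc2 (chr7:97399853-97400002, plus strand) and Cox8b (chr7:140900447-140900596, minus strand) had no gene-end peak in any library. The NRF1 core of Uqcrc1 begins 30 bp after its start, outside the bases printed.
Ndufs6: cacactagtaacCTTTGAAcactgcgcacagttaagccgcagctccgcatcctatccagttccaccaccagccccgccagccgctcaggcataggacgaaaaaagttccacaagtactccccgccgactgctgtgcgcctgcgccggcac
Ndufv2: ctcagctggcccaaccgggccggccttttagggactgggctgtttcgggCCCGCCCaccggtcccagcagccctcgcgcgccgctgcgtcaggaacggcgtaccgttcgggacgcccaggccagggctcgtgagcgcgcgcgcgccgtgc
Atp5g2: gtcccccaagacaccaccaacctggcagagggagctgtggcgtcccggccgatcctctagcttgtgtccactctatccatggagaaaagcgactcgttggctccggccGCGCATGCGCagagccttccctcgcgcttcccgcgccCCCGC
Uqcrh: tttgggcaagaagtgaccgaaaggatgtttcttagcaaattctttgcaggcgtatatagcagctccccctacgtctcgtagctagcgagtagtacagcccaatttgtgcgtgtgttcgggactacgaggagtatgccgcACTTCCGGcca
Uqcrc1: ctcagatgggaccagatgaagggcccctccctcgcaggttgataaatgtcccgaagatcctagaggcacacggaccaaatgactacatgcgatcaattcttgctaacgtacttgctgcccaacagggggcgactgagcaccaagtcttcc
Ndufc2: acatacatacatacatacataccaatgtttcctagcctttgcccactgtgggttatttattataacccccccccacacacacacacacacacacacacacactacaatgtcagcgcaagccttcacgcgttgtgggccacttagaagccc
Cox8b: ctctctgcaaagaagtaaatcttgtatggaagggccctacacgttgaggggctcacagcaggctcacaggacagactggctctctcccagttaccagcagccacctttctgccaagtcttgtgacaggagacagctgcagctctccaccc

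Exact cores were counted on both strands in the 300 bp promoters of the 78 members and of all 17491 genes in the table. The TCF/LEF core, CTTTGAA or CTTTGAT, stood in 2 members (2.56%) and in 7.83% of all promoters. In Ndufs6 it began 138 bp before the start, and the summits of the 6 libraries lay 105 to 133 bp before the start. In Ndufb11 it began 20 bp after the start, and the summits lay 110 to 136 bp after it. The NRF1 core GCGCATGCG, which reads nearly the same on both strands, so that a site can be found on each and was counted once a promoter, stood in 10 members (12.8%) and in 2.41% of all promoters. The YY1 core AAGATGGCG stood in 7 members (8.97%, against 1.94%), and the ERR core TCAAGGTCA in 2 members (2.56%, against 0.332%). The ETS core CCGGAAGT, the form GABP binds, stood in 5 members (6.41%, against 5.29%) and the SP core GGGCGGG in 28 (35.9%, against 34.0%). Over all genes, the NRF1 core was in 4.22% of promoters with a held end and 1.37% of those without, and the TCF/LEF core in 6.6% and 8.54%. Those promoters also differ in CpG, with a median of 21 where an end was held and 6 where none was. The part of CpG in these contrasts was not tested. Among members, the NRF1 core was in 13.8% of 58 with a held end and 10% of 20 without, and the TCF/LEF core in 3.45% and 0%. A match describes letters and is not a site, and a core that is not in this window says nothing about the factor.

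By complex, the share of genes with a held end was highest at ATP synthase and lowest at complex IV. LEF1 held an end of 25 of 41 complex I subunits, 5 of 8 complex I assembly factors, 3 of 4 complex II genes, 6 of 8 complex III genes, 7 of 18 complex IV genes and 16 of 17 ATP synthase genes. TCF1 held 26, 4, 2, 5, 7 and 15 of the same groups. Of the 11 complex IV genes that are not known for restriction to other tissues, each factor held 7 (63.6%).

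**Figure D3:**
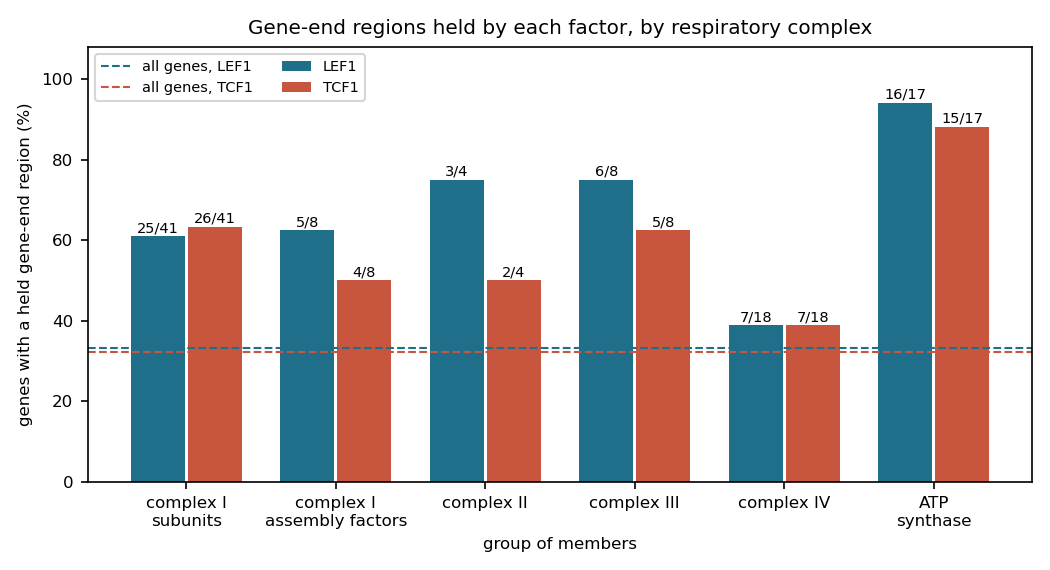
Bars give the percent of genes in each group with a gene-end region held by LEF1 (blue) or TCF1 (red), with the counts above them, and dashed lines the same percent over all protein-coding genes. ATP synthase stands highest at 94.1% and 88.2%, and complex IV stands nearest the all-gene lines at 38.9% for each factor.

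Among complex I subunits, the strongest ends were those of Ndufv2, Ndufb11 and Ndufs8. The values given are the authors' fold enrichments of the strongest gene-end peak, the signal at the summit over the background, and they compare genes within 1 library only. Ndufv2, a subunit with an iron-sulphur cluster, stood at 42.3, 63.5 and 45.2 in LEF1 replicates 1 to 3 and at 40.1, 40.1 and 21.3 in TCF1 replicates 1 to 3. Ndufs8, which carries iron-sulphur clusters next to the quinone site, stood at 39.3, 47.5 and 33.7 and at 37.9, 35.0 and 20.1. Its LEF1 and TCF1 ranks within the libraries overlapped. Ndufb11, an accessory subunit of the membrane arm, stood at 35.6, 43.7 and 33.9 in LEF1 and at 48.7, 43.8 and 25.7 in TCF1. Ndufb5, another membrane arm subunit, stood at 23.1, 32.9 and 23.4 and at 27.5, 25.6 and 14.5, at a region (chr3:32736553-32737092) that Mrpl47 shares. In all, 14 of the 41 subunits had an end peak in all 6 libraries.

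The Ndufaf genes encode factors that build complex I and are not part of it. Ndufaf8 was the only one of the 8 with an end peak in all 6 libraries, at 15.7, 20.8 and 14.5 in LEF1 and 18.7, 17.2 and 8.85 in TCF1. It shares its end with Tepsin. LEF1 alone held an end of Ndufaf5 and Ndufaf6, and TCF1 alone that of Ndufaf4. Ndufaf2 and Ndufaf3 had no end peak in any library, though both factors held regions within 10 kb of Ndufaf3.

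All 4 complex II genes had a gene-end peak in at least 1 library, and they ranged from 1 library to all 6. Sdhb, the iron-sulphur subunit, had one in every library, at 8.30, 18.7 and 11.9 in LEF1 and at 14.6, 13.4 and 5.91 in TCF1. LEF1 held 4 regions and TCF1 3 in its body and 10 kb around. Sdhc, a membrane anchor, had one in every library but TCF1 replicate 3 (10.8, 17.3 and 7.46 in LEF1, 11.3 and 9.22 in TCF1). Sdhd, the other anchor, had one in LEF1 replicates 1 and 2 (4.14 and 9.20) and TCF1 replicate 1 (4.94), so its end was held by LEF1 only. Sdha, the flavoprotein that oxidises succinate, had an end peak only in the longest list, LEF1 replicate 2 (4.64). Both factors held 2 regions within 10 kb of Sdha.

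Complex III holds the strongest and the most uneven members. Uqcrq, a small subunit of the complex, had the highest fold enrichment of all members in each of the 6 libraries: 72, 89 and 61.1 in LEF1 and 84.0, 81.6 and 46.7 in TCF1, at chr11:53430487-53431460, a region it shares with Gdf9. Uqcrh, the hinge protein that helps cytochrome c dock, stood at 5.07, 9.16 and 6.25 in LEF1 and at 29.6, 21.6 and 13.4 in TCF1 (chr4:116074908-116075475). Its 3 TCF1 values are the higher ones and do not overlap its LEF1 values, and its ranks within each list, the measure that can be set side by side, are given below. Uqcrc1, a core protein of the complex, went the other way, at 21.6, 30.6 and 16.5 in LEF1 and 17.1, 13.1 and 6.68 in TCF1 (chr9:108936377-108936714), with values that overlap. Uqcrfs1, the Rieske iron-sulphur protein, stood at 12, 13.6 and 8.47 and at 10.7, 11.6 and 8.28. Uqcrc2, the other core protein, was held at its end by LEF1 only (5.89 and 8.68 in LEF1 replicates 1 and 2, 6.15 in TCF1 replicate 1).

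Among complex IV genes, Cox7a2l alone had an end peak in all 6 libraries. Its product is known for joining complexes III and IV. It stood at 7.72, 15.4 and 6.02 in LEF1 and 20.1, 10.9 and 8.17 in TCF1, and the groups overlap. Cox5a and Cox5b, both nuclear-encoded subunits, differ in which factor held a region within 1 kb of a gene end. Cox5a had an end peak in LEF1 replicates 1 and 2 only (9.80 and 9.32), 3.93 kb upstream of its listed start. Over the listed start itself, inside the gene, lay a region (chr9:57520958-57521333) that TCF1 held and no LEF1 library listed. It stood at 7.49 and 9.69 in TCF1 replicates 1 and 2. Another region in the body (chr9:57523801-57524299) had a peak in all 6 libraries. Cox5b had one in LEF1 replicate 2 (4.85) and in TCF1 replicates 1 and 2 (9.01 and 5.62). Cox4i1, the common form of subunit 4, was held at an end by both factors (4.19 and 4.46 in LEF1 replicates 1 and 2, 6.98 and 5.45 in TCF1 replicates 1 and 2).

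Of the complexes, ATP synthase had the highest share of genes with a held end for each factor, a count that needs 2 of 3 libraries. By library, 16, 16 and 11 of the 17 had an end peak in LEF1 and 16, 15 and 5 in TCF1. All 6 libraries had one at 5 of the 17 (29.4%), against 34.1% of complex I subunits and 50% of complex III genes. Atp5b, the catalytic beta subunit, led at 33.9, 48.0 and 28.8 in LEF1 and 33.2, 30.1 and 14.3 in TCF1, with a summit 162 to 167 bp upstream of the start in every library. The 3 genes Atp5g1, Atp5g2 and Atp5g3 encode the same mature c subunit of the rotor. Atp5g1 stood at 14.3, 31.4 and 12.1 in LEF1 and 16.1, 22.0 and 9.61 in TCF1. Atp5g2 stood lower, at 8.83, 11.4 and 8.45 and at 6.75, 12.8 and 4.99. Atp5g3 stood between 6.11 and 8.59 in 5 libraries, with no end peak in TCF1 replicate 3. Within each library that listed them, Atp5g1 was the strongest of the 3. Atp5l, the g subunit, had peaks at both ends: its strongest LEF1 peak lay 7260 bp downstream of the start in every LEF1 library, and its strongest TCF1 peak 102 to 156 bp upstream in every TCF1 library. Ndufa4 showed the same split, with the strongest LEF1 peak 5960 to 6010 bp downstream and the strongest TCF1 peak 211 to 221 bp upstream. At both genes the strongest peaks of all 3 libraries of a factor lay at the same end. The split concerns only which peak was the stronger. At Ndufa4 both ends had a peak in all 6 libraries, and the region at the start is shared with Phf14. There TCF1 stood at 12.3, 12 and 4.67 at the downstream end, and LEF1 at 8.14, 10.8 and 8.21 at the start. At Atp5l both factors held a region at each end. Of the 3388 genes with an end peak in all 6 libraries and a listed start, 5 split by factor in this way (0.148%), and Atp5l and Ndufa4 are 2 of these 5. The count was added after the split had been seen and is given as a description. Atp5mpl, a small subunit, was the one ATP synthase gene with no peak.

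**Figure D4:**
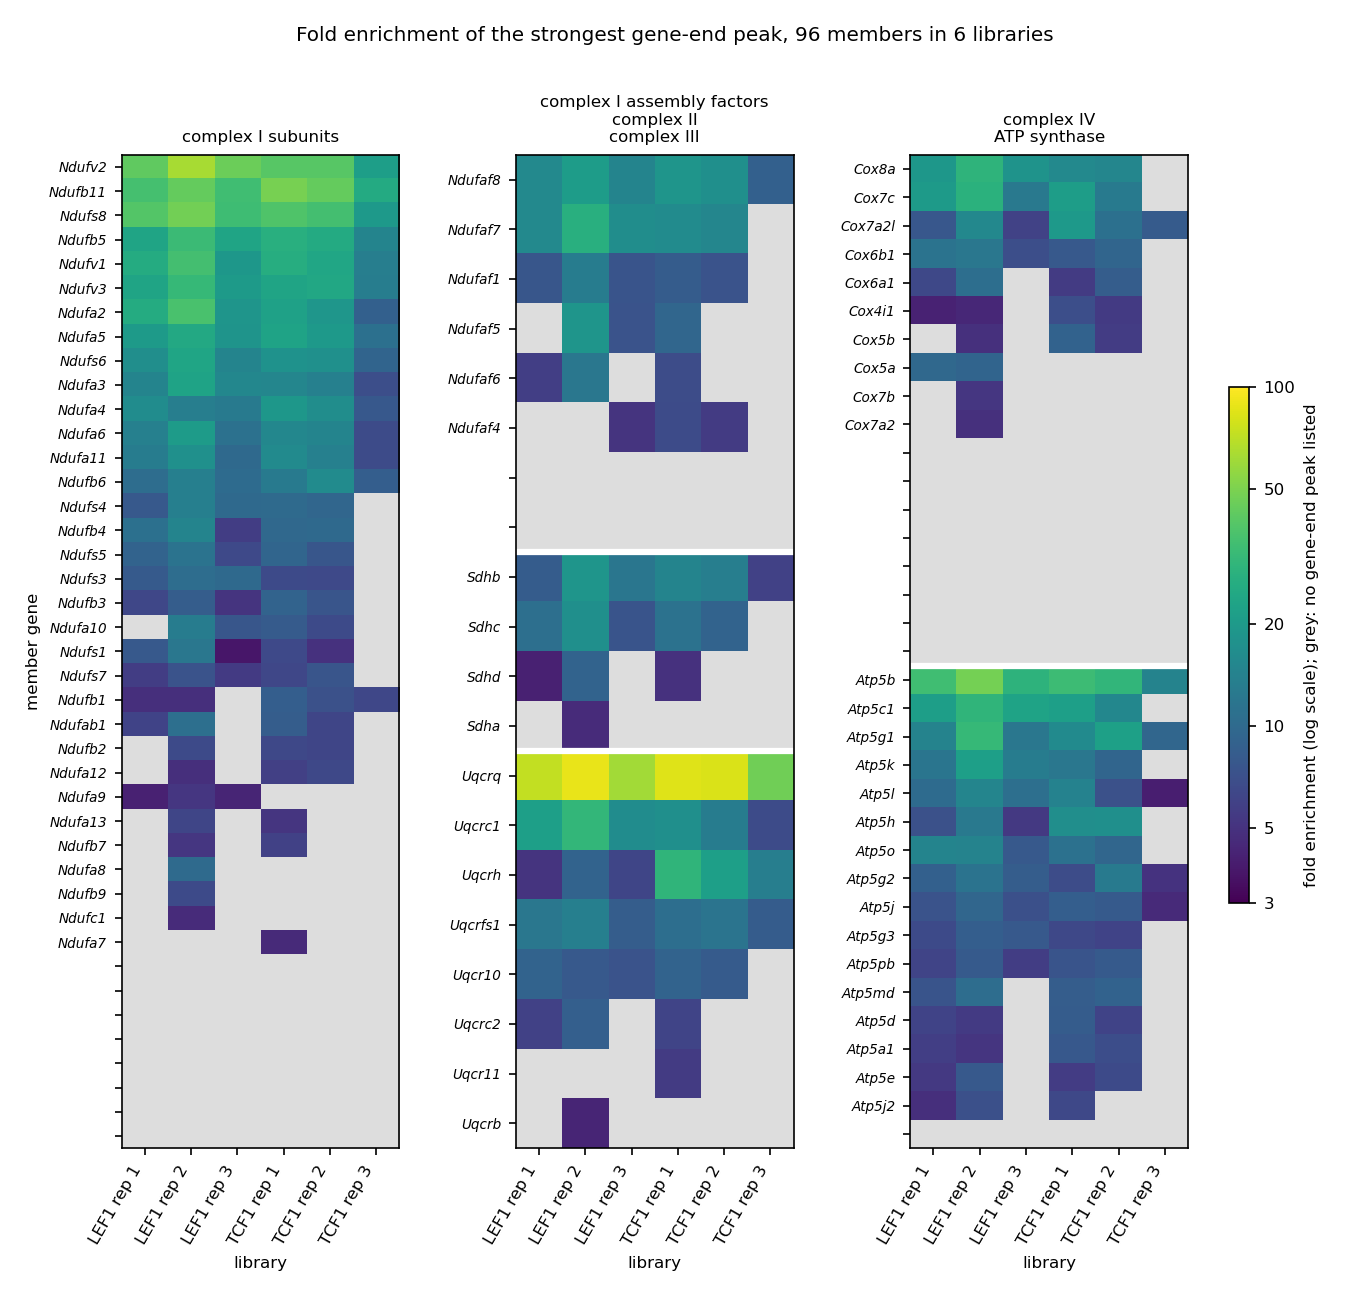
Each row is 1 of the 96 members and each column 1 of the 6 libraries, and the colour gives the fold enrichment of the strongest peak within 1 kb of a gene end on a log scale, with grey where none was listed and names left off rows that are grey throughout. Uqcrq is the brightest row in every library (46.7 to 89.0), Uqcrh is darker in the 3 LEF1 columns (5.07 to 9.16) than in the 3 TCF1 columns (13.4 to 29.6), and the TCF1 replicate 3 column has a value at only 27 members.

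An end held by 1 factor only was rare among the members, and mostly the other factor had a peak there in 1 library. LEF1 alone held an end of 7 members (7.29%, against 3.02% of all genes): Atp5j2, Cox5a, Ndufa9, Ndufaf5, Ndufaf6, Sdhd and Uqcrc2. TCF1 alone held an end of 4 (4.17%, against 2.12%): Cox5b, Ndufa12, Ndufaf4 and Ndufb2. These shares are taken over all genes, and ends of members were held more often by each factor. Among genes with an end held by LEF1, these were 7 of 62 members and 661 of 7264 of all genes. Among those held by TCF1, they were 4 of 59 members and 465 of 7068 of all genes. Of the 7, 5 had an end peak in 1 TCF1 library, and all of the 4 had one in 1 LEF1 library. Cox5a and Ndufa9 alone had an end peak in no TCF1 library, though TCF1 held a region over the listed start of Cox5a, inside the gene. At Ndufa9, an accessory subunit, the LEF1 values were 4.14, 5.20 and 4.31.

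To compare the factors on lists of equal length, the strongest gene-end peak of each gene was ranked within each library among the 4065 genes with an end peak in all 6, as a percentile with 0 the strongest. Of the 26 members so ranked, 17 had LEF1 and TCF1 ranks that overlapped. The 3 LEF1 ranks were all stronger than the 3 TCF1 ranks at 6 members (21.3% of all ranked genes): Uqcrc1, Ndufa2, Ndufa3, Atp5b, Ndufv2 and Atp5j. The TCF1 ranks were all stronger at 3 (19.2% of all ranked genes): Uqcrh, Ndufb11 and Uqcrq. The counts of 6 and 3 of 26 are near or below these background shares. With 3 libraries against 3 the smallest two-sided exact permutation p of a gene is 0.1, so that none of the 4065 genes could pass an adjusted threshold. Uqcrh had the widest gap, with ranks of 99.5, 96.7 and 96.3 in LEF1 and 24.0, 36.9 and 26.9 in TCF1, that is 97.5 ± 1.73 against 29.3 ± 6.77 (SD, n = 3 each; exact permutation p = 0.1). Only 3 of the 4065 genes had a larger difference of mean ranks in that direction. Uqcrc1 ranked at 36.8, 36.1 and 46.5 in LEF1 and 60.7, 73.8 and 78.7 in TCF1, that is 39.8 ± 5.81 against 71.1 ± 9.32 (SD, n = 3 each; exact permutation p = 0.1), and 54 genes had a larger difference in that direction.

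The remaining gaps are small beside those of Uqcrh and Uqcrc1. Ndufa2 and Ndufa3, accessory subunits of complex I, had mean ranks of 30.9 and 57.2 in LEF1 and 48.4 and 71.8 in TCF1. For Atp5b, Ndufv2 and Atp5j the mean LEF1 rank minus the mean TCF1 rank was -4.49, -3.26 and -2.32. Ndufb11 averaged 15.4 in LEF1 and 7.85 in TCF1, and Uqcrq 2.59 and 1.28. Uqcrh, Ndufb11 and Uqcrq each share their end with another gene. With shared ends left out, none of the 13 members still ranked had stronger TCF1 ranks (19.4% of all genes so ranked) and 3 had stronger LEF1 ranks (21.2%). Without TCF1 replicate 3, 46 members could be ranked, 12 with stronger LEF1 ranks (25.8% of all genes so ranked) and 9 with stronger TCF1 ranks (22.7%). The TCF1 count was 6 of 27 without LEF1 replicate 3 (23.8% of all genes so ranked) and 6 of 26 without TCF1 replicate 1 (23.9%). The members' counts are near or below the all-gene shares in each of these settings.

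**Figure D5:**
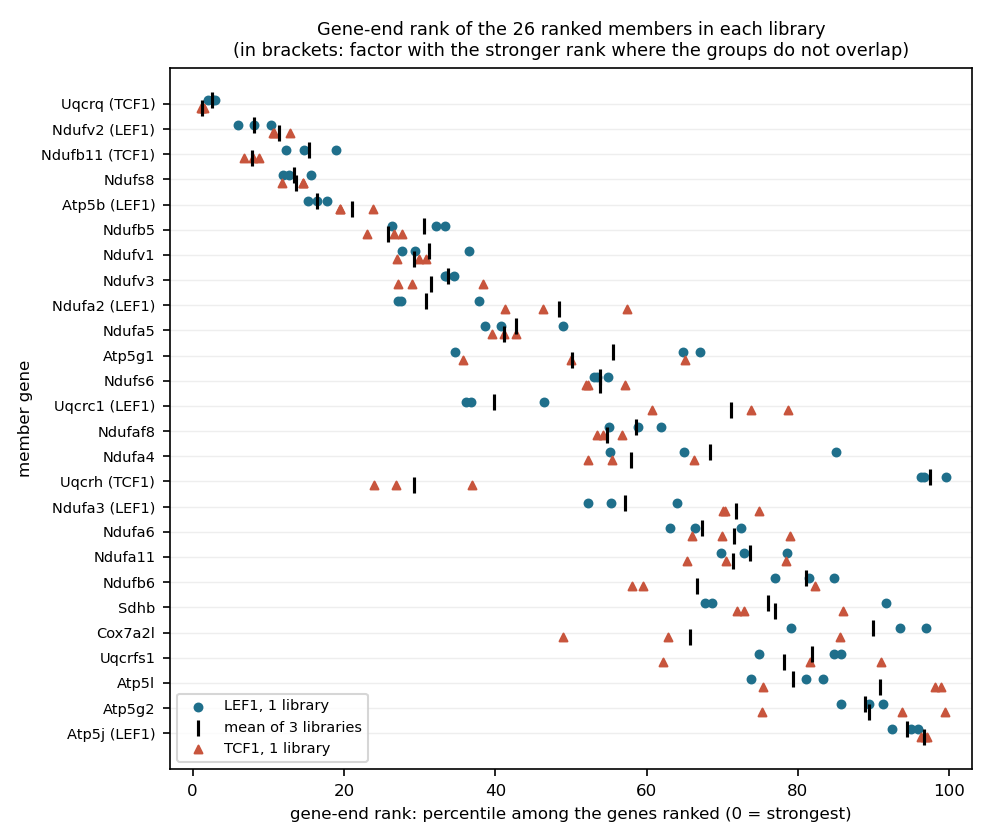
Each row is 1 of the 26 ranked members and the horizontal axis its gene-end rank as a percentile (0 is strongest), with circles for the LEF1 libraries, triangles for the TCF1 libraries and black ticks for the mean of 3. Uqcrq lies at the strong end in every library (1.12 to 2.99), Uqcrh shows its TCF1 ranks at 24.0 to 36.9 and its LEF1 ranks at 96.3 to 99.5, and at 17 members the groups overlap.

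The isoforms known for other tissues carried no gene-end peak. These 8 genes are Cox6a2, Cox7a1 and Cox8b of heart and skeletal muscle, Cox6b2, Cox7b2 and Cox8c of testis, Cox4i2 of lung, and Ndufa4l2, which is known to be induced by hypoxia. None had a gene-end peak in any of the 6 libraries, as was so at 59.2% of all protein-coding genes. Only Cox7a1 and Cox8b had a region within 10 kb, 8.79 and 8.22 kb away, each held by both factors. Cox7a1 and Cox8b have the ubiquitous counterparts Cox7a2 and Cox8a. Cox8a had an end peak in 5 libraries (19.2, 29.2 and 18.2 in LEF1, 15.6 and 15.1 in TCF1). Cox7a2 had an end peak in LEF1 replicate 2 only (4.90), but its listed start lies inside the gene. Both factors held a region over that start (chr9:79759578-79760002). It stood at 6.39 and 7.27 in LEF1 replicates 1 and 2 and at 8.64 and 10.6 in TCF1 replicates 1 and 2. Peaks do not measure expression, and expression of these genes was not analysed here.

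Of the 12 members with no peak of any library in the body or within 10 kb, 6 are such isoforms: Cox4i2, Cox6a2, Cox6b2, Cox7b2, Cox8c and Ndufa4l2. Another 2, Ndufb4b and Ndufb4c, are named as copies of Ndufb4, and the treatment of reads that fit several places is not given in the sources used here. Last come 4 subunits found in most tissues: Ndufa1 and Ndufc2 of complex I, Cox6c of complex IV and Atp5mpl of ATP synthase. Their promoters are not of 1 kind: that of Ndufc2, printed above, holds 8 CpG in 300 bp, and that of Ndufa1 holds 29. Ndufaf2 and Ndufaf3, which had no end peak either, hold 25 and 29.

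Away from the gene ends, regions were fewer. Of the 126 LEF1 regions in the bodies and 10 kb around, 69 (54.8%) lay at a member's end, 20 (15.9%) at the end of another gene only and 37 (29.4%) at neither. For TCF1 the counts were 63, 19 and 28 of 110. Atp5d and Atp5h, of the delta and d subunits, had the most, 6 regions each held by either factor. At Atp5h, LEF1 held 6 and TCF1 5, and the strongest (chr11:115406643-115407769, 7.92 kb from the gene) stood at 39.3, 47.0 and 34.6 in LEF1 and 24.9, 32.0 and 10.4 in TCF1, above the peak at its own end (5.37 to 17.1). At Atp5d the end region (chr10:80137290-80137967) lay 4.46 to 4.72 kb upstream of the listed start, and the strongest region was 3.07 kb outside the gene (11.6 to 23.3). A body region over the listed start (chr10:80141984-80142354) stood at 9.36, 15.2 and 6.47 in LEF1. In TCF1 replicates 1 and 2 it stood at 8.73 and 10.2. Atp5o, of the subunit that joins the catalytic head to the stalk, had 3.

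Other gene lists of the pathway and of energy metabolism had shares of held ends from 52.9% to 75% for LEF1 and from 61.5% to 71.4% for TCF1. Among 39 assembly factors outside the symbol rule, LEF1 held an end of 29 (74.4%) and TCF1 of 26 (66.7%), led by Lyrm7, Bcs1l and Cox14. Of 7 electron carriers and related enzymes each factor held 5. Cycs (cytochrome c) had an end peak in all 6 libraries, at 6.53 to 17.6, and Cyc1 (cytochrome c1) had one in none. The citric acid cycle had 9 and 8 of 13, led by Cs (citrate synthase) at 30.1 to 86.1. Glycolysis and lactate genes had 15 and 13 of 20, and Ldha, lactate dehydrogenase A, had no end peak. Among 17 regulators LEF1 held 9 and TCF1 11, with Pprc1, Esrra (ERR-alpha) and Twnk in the lead. Tfam, which packages mitochondrial DNA, had an end peak in all 6 libraries (8.14 to 18.7), and Nrf1, Ppargc1a and Ppargc1b had none.

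Large gene groups of the protein machinery stood near the members as well. Genes with Mrpl or Mrps symbols (mitochondrial ribosome) had ends held by LEF1 and TCF1 at 48 and 49 of 78 (61.5% and 62.8%). Genes with Psm symbols (proteasome) had 29 and 31 of 51 (56.9% and 60.8%). Genes with Rpl or Rps symbols (cytosolic ribosome) had 70 of 101 for each factor (69.3%). These groups rest on symbol prefixes alone, so genes that are not part of the named complex can be among them. The members' 64.6% and 61.5% lie within the range of these 3 groups, and no difference between them was tested. Of fixed markers of cell types, all 6 T cell genes (Cd3e, Cd3d, Cd3g, Cd5, Cd8a and Cd8b1) had end peaks in all 6 libraries, against 18.6% of all genes. Peaks do not measure expression, so the markers give only where peaks lay and do not test the labelled cell type. In the lists of B cells (5 genes), myeloid cells (5) and NK cells (4), an end was held by either factor only at Cd79a and Itgam.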

How the data were processed

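Peak lists of 3 LEF1 and 3 TCF1 CUT&RUN libraries were used. The submitters' processing notes name, for build GRCm38.p6, MACS3 3.0.3, Bowtie2 2.4.4, Trim Galore 0.6.6, FastQC 0.12.1, deepTools 3.5.1 and Picard. The options of the peak caller, and its control, were not given in the sources used here. Each library has its own list, as the deposited peak names show. The deposited fold enrichment is a ratio, the deposited p and q are −log10 values, and the deposited score follows from q. They served only to rank or filter peaks within a list. Read depth is unknown, and the 11423 to 37646 intervals per list limit what can be seen.

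Intervals with several summits were counted once and merged over libraries (at least 1 bp overlap), and coordinates are 1-based. Gene positions came from a RefSeq table, and starts and promoters, added after the data were seen, from a RefSeq promoter table with 78 of the 96 members. A held region may touch the window through 1 library and be held through another peak merged with it. Promoters on chromosome 18 are not printed. Python 3.11.15 with pandas 2.3.3 and numpy 2.4.6 was used. On simulated lists, all 400 genes planted with an end region of LEF1 and all 400 of TCF1 were recovered among 21883 genes. The planted genes had no other gene end nearby, and short genes were left out. Each planted peak lay close to a gene end in every library of its factor, and no background peaks were added. This checks the counting code only, and does not cover shared ends, short genes or peaks missing from a library.

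The members and lists were chosen with earlier results of these data known. Named were, by rule, the Sdh genes, the 4 best-ranked members of each group, the 6 with the most regions, the tissue isoforms, the members held by 1 factor or without a peak, and the 5 widest rank differences in each direction. Other members named, among them Ndufs6, Ndufa4, Ndufa11, Ndufb6, Atp5g3, Cox4i1, Cox7a2 and Cox8a, were chosen after their values were seen. Some genes and 1 marker list are not reported here.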

Additional observations from a re-analysis of the deposited data

Results flagged for a closer look

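Peaks also lay on the mitochondrial chromosome, which the comparisons above leave out and which encodes the other subunits of the respiratory complexes. Each of the 6 libraries listed 2 distinct intervals there. In every library they touched 7 of the 13 protein genes: ND1, ND2, ND4, ND5 and ND6 of complex I, CYTB of complex III and COX1 of complex IV. COX2, ATP8, ATP6, COX3, ND3 and ND4L were touched in none. The intervals were 5315 to 6527 bp wide, against median widths of 322 to 376 bp over the lists. Their fold enrichments ran from 2.87 and 3.38 in TCF1 replicate 3 to 8.51 and 9.40 in LEF1 replicate 2, and 60.3% to 100% of the peaks in their lists were stronger. An input peak list was not analysed here, so the level without antibody is not known.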

How the results depend on the processing

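The members' share of held ends and of regions within 10 kb stayed above that of all genes under each alternative run for those 4 counts. Of 80 recomputed values, 59 stayed within 1.5 times of the reported count, or kept the sign for the tested difference. With lists of equal size, the end counts were 24 (LEF1) and 30 (TCF1), the counts within 10 kb 37 and 42, and the tested difference of all-gene shares -3.06 percentage points (exact permutation p = 0.1). When all 3 libraries were required, the TCF1 counts were 27 at ends and 43 within 10 kb. With shared ends left out, 34 and 32 ends were held, and the rank counts were 3 (LEF1 stronger) and 0 (TCF1 stronger). Ranks by −log10 q gave 5 members with stronger TCF1 ranks.

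Leaving out 1 library at a time gave 47 to 62 ends held by LEF1 and 27 to 59 by TCF1, 65 to 76 and 43 to 74 members within 10 kb, a difference of -0.778 to 7.66 percentage points (exact permutation p 0.5 to 1), and 6 to 12 and 3 to 9 members with non-overlapping ranks. The cause was not tested, except that TCF1 replicate 3 has the shortest list and sets which genes can be ranked. With the replicate number as a block (sign flips over same-numbered pairs) the difference of 4.34 had exact permutation p = 0.5, the smallest possible being 0.25. Same-numbered libraries deviated together with correlations of -0.00803, 0.0466 and 0.0372, and LEF1 and TCF1 libraries of different numbers with -0.0492 to 0.00993. The same-numbered values 0.0466 and 0.0372 were the highest of these, but all were small and do not settle whether the libraries are paired. The title numbers were not taken to pair the libraries in the main test. Neither test could give a p below 0.05, the smallest possible being 0.1 without the block and 0.25 with it. The library names carry other numbers than the titles, which were used here, and whether any libraries share an animal is not known.

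Read depth, open DNA, expression and the signal without antibody were not analysed here, so a gene without a peak is one at which none was listed.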
